A study of Mus musculus with 2 samples.

Results

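Transcripts of 10 genes that control breakdown of the extracellular matrix were compared between FAPs treated with platelet-rich plasma (PRP) and FAPs treated with vehicle. They were taken by gene name: the matrix metalloproteinases Mmp2, Mmp3, Mmp13, Mmp14 and Mmp19, the ADAMTS proteases Adamts1 and Adamts5, and the tissue inhibitors Timp1, Timp2 and Timp3. All 10 were found among the 44291 genes of the deposited tables, and all 10 passed a filter that asked for an average of 1 FPKM or more over the libraries. FPKM counts the fragments of a gene relative to its exon length and to the depth of the library, so levels of different genes can be set side by side.

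FAPs, or fibro-adipogenic progenitors, are stromal cells of muscle from which adipocytes and matrix-producing fibroblasts can arise. Primary wild-type mouse FAPs, which the methods of the study describe as sorted by flow cytometry, received PRP or vehicle. Both groups were induced to form adipocytes in DMEM that contained insulin (10 μg/ml), dexamethasone (0.25 μM), IBMX (0.5 mM) and FBS (20%). Each group is 1 library. The labels call the treatment PRP, while the text of the study describes exosomes prepared from the PRP of young human donors. The libraries are named here as labelled. How many mice or cultures went into a library and how long the cells were induced is not given in the labels. Because neither group was replicated, no difference could be tested and no p-value is given, and each value compares a pair of libraries and not the treatments.

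Matrix metalloproteinases (MMPs) are zinc-dependent proteases that cut collagens, proteoglycans and other proteins of the matrix, and most are secreted as inactive precursors. ADAMTS proteases are related secreted enzymes, several of which cut large proteoglycans. TIMPs bind to the active site of these proteases and block it, and TIMP2 also takes part in the activation of the MMP2 precursor by membrane-bound MMP14. In muscle, FAPs and other fibroblasts make much of this machinery, which remodels the matrix after injury.

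Genes of the stromelysin and collagenase group on mouse chromosome 9 are known to be induced through AP-1, the family of FOS and JUN transcription factors, so promoter sequences are shown first. The RefSeq windows run from 250 bases before to 50 bases after the start of the gene (GRCm38.p6), and 7 of the 10 genes had one, namely Mmp3, Mmp13, Mmp14, Adamts1, Timp1, Timp2 and Timp3. The AP-1 motif TGAGTCA, or TGACTCA on the other strand, was present in the windows of Mmp3 and Mmp13 and in none of the other 5. It was found in 5.20% of all 32851 promoter windows. The windows of Mmp3 (chr9:7445572-7445871, plus strand), of Mmp13 (chr9:7272264-7272563, plus strand) and of their neighbour Mmp10 (chr9:7502092-7502391, plus strand) are printed 5′ to 3′, with the AP-1 motif in capitals, because these 3 were the MMP genes with a higher level in the PRP library among those that passed the filter.
Mmp3: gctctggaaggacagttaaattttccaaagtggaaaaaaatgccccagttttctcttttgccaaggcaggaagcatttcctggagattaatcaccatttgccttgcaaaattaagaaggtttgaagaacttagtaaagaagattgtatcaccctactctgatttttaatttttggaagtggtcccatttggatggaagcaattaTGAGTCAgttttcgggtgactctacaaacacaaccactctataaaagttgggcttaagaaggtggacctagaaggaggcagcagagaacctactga
Mmp13: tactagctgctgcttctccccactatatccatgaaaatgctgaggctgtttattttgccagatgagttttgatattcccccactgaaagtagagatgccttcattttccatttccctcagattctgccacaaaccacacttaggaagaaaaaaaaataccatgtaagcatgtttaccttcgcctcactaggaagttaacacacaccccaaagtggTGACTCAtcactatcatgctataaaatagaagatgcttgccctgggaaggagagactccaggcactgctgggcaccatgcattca
Mmp10: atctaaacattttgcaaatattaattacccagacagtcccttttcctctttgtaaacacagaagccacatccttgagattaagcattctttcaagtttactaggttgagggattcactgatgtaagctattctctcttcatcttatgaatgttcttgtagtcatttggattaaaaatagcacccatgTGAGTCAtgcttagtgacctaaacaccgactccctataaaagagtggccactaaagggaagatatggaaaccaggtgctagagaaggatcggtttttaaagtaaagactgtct

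The motif began 46 bases before the start in Mmp3, 35 bases before it in Mmp13 and 63 bases before it in Mmp10. It lay on the gene's strand in Mmp3 and Mmp10 and on the other strand in Mmp13. All 3 windows also held the letters TATAAA between the motif and the start, a search added after the sequences had been seen. TATAAA was found in 13.6% of all windows, and among the 7 genes in Mmp3, Mmp13 and Adamts1. The cAMP response element TGACGTCA, present in 1.79% of all windows, was in none of the 7. The ETS core GGAA was in all 7, but it was also in 96.0% of all windows and so does not set them apart.

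**Figure D1:**
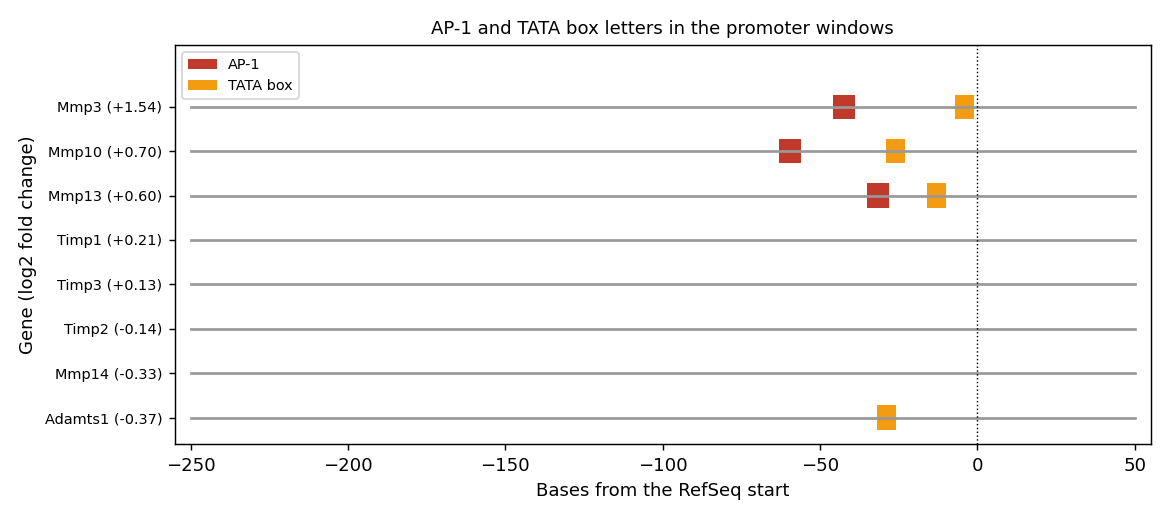
Positions of the AP-1 motif (TGAGTCA, either strand) and of TATAAA in the promoter windows, in bases from the RefSeq start (dotted line), for the 7 genes that had a window and for Mmp10. Genes are ordered by log2 fold change, given beside each name. Of the genes drawn, the 3 with an AP-1 motif have the highest values (1.54, 0.70 and 0.60). Mmp10 was added because it was higher in the PRP library, so this order is partly set by that choice. Other tested genes of the families with a window are not drawn.

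Mmp3 (ENSMUSG00000043613, mm10 chromosome 9, 7445822 to 7455975) differed most. It encodes stromelysin-1, which cuts proteoglycans, fibronectin and basement membrane proteins and can activate other MMP precursors. Mmp3 had 30.6 FPKM with PRP and 9.89 FPKM with vehicle. These levels came from 2211 and 608 reads, which put the PRP to control ratio at 3.09 (95% counting interval 2.72 to 3.52). On the scale used for all genes, log2(PRP FPKM + 1) minus log2(control FPKM + 1), its log2 fold change was 1.54. Of the 13401 genes that passed the filter, called tested genes here although no statistical test was run, 0.575% had a higher log2 fold change.

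Mmp3 was also the 1 gene of the 10 that passed a 2-fold difference, a share that can be read against 2.83% of all tested genes (2.00% higher and 0.828% lower in the PRP library). At a 1.5-fold difference there were 3 of 10, with Mmp3 and Mmp13 higher and Mmp19 lower, against 10.7% of all tested genes (6.15% higher and 4.57% lower). In all, PRP levels were above control for 4 of the 10 genes and below it for 6. Of the 13401 tested genes, 6815 were above and 6586 below. Their median log2 fold change was -0.14, while the median of all tested genes was 0.01. In bulk RNA, fewer cells of a type and less RNA per cell cannot be told apart. All 8 markers of FAPs were lower in the PRP library as well (median log2 fold change -0.41), and their part in the levels of the 10 genes was not tested. Every one of the 10 counting intervals lay on 1 side of no change, but these intervals cover counting error only and say nothing of the spread between cultures. With many reads, a small difference is enough for this. Timp3 had a ratio of 1.10, and 65.5% of genes with a mean FPKM within 2-fold of its own differed more. The share of all tested genes with such an interval was not counted.

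**Figure D2:**
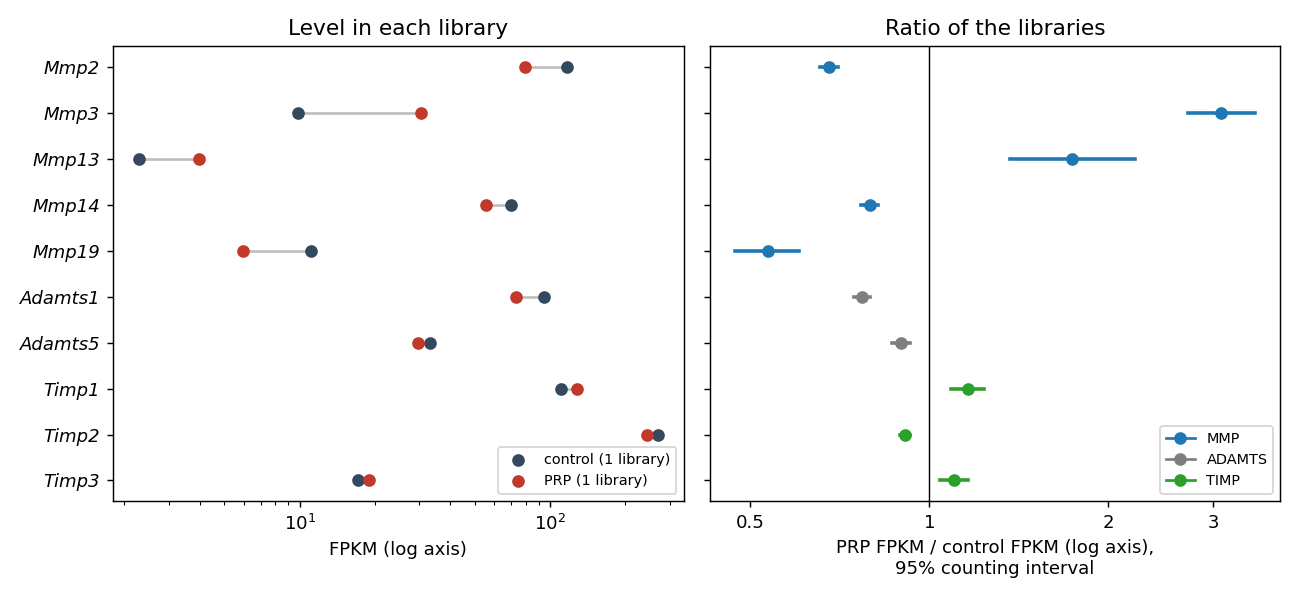
Left, FPKM of each gene in the PRP and control libraries (log axis, 1 point per library). Right, ratio of PRP to control FPKM (log axis), where bars are exact 95% counting intervals from fragment numbers and cover no biological spread. Mmp3 (3.09) and Mmp13 (1.73) lie farthest to the right and Mmp19 (0.534) and Mmp2 (0.678) farthest to the left.

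Mmp13 (ENSMUSG00000050578, mm10 chromosome 9, 7272514 to 7283331) encodes collagenase-3, the main interstitial collagenase of rodents. It was the least abundant of the 10 genes in both libraries, with 3.95 FPKM with PRP and 2.28 FPKM with vehicle. With 424 and 208 reads behind these levels, the ratio of 1.73 had an interval of 1.37 to 2.22. On the log2 scale the difference was 0.60, just past the 1.5-fold limit, and it was 0.30 with a pseudocount of 5, which weighs most on low values.

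The other 3 MMPs were lower in the PRP library. Mmp2 (ENSMUSG00000031740, mm10 chromosome 8, 92827291 to 92853420) encodes gelatinase A, which cuts denatured collagen and collagen IV. It was the most abundant MMP in both libraries, at 79.6 FPKM with PRP against 117 FPKM with vehicle (ratio 0.678, interval 0.654 to 0.703). Mmp14 (ENSMUSG00000000957, mm10 chromosome 14, 54431612 to 54445364) encodes the membrane-bound collagenase that activates the MMP2 precursor. It had 55.3 against 69.7 FPKM (ratio 0.793, interval 0.767 to 0.821). Both differences were short of 1.5-fold on the log2 scale with a pseudocount (-0.56 and -0.33).

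Mmp19 (ENSMUSG00000025355, mm10 chromosome 10, 128790910 to 128800824), a secreted MMP that cuts basement membrane and other matrix proteins, was the lowest of the 10 by fold change. It had 5.95 FPKM with PRP and 11.1 FPKM with vehicle (ratio 0.534, interval 0.472 to 0.604, log2 fold change -0.80). Of all tested genes, 2.01% had a lower log2 fold change. Tmem198b, on the opposite strand, shares 22.3% of the exon length of Mmp19 and was also lower, with 3.21 against 6.10 FPKM. Gm47093, on the opposite strand too, shares 6% and had 1.15 against 1.70 FPKM. The libraries were made with a stranded kit, but whether strand was used in counting is not given in the sources used here. The reads of Mmp19 and of these genes may therefore not be separated.

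Both ADAMTS genes were lower by less than 1.5-fold. Adamts1 (ENSMUSG00000022893, mm10 chromosome 16, 85793827 to 85803113) encodes a protease that cuts versican and aggrecan. It had 73.3 FPKM with PRP and 95.03 FPKM with vehicle (ratio 0.771, interval 0.748 to 0.795). Adamts5 (ENSMUSG00000022894, mm10 chromosome 16, 85856173 to 85901828) encodes the main aggrecan-cutting enzyme of mouse cartilage. It had 29.6 against 33.0 FPKM (ratio 0.896, interval 0.865 to 0.929). The genes are neighbours on the minus strand, separated by 53059 bases.

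The 3 inhibitor genes differed by less than 1.5-fold in either direction. Timp1 (ENSMUSG00000001131, mm10 chromosome X, 20870166 to 20874735), the inducible member of the family, had 129 FPKM with PRP and 111 FPKM with vehicle (ratio 1.16, interval 1.09 to 1.24). Timp3 (ENSMUSG00000020044, mm10 chromosome 10, 86300372 to 86349506) encodes the matrix-bound inhibitor that also blocks ADAMTS enzymes, and it had 18.9 against 17.2 FPKM (ratio 1.10, interval 1.04 to 1.16). Timp2 (ENSMUSG00000017466, mm10 chromosome 11, 118301069 to 118355740) was the most abundant of the 10 genes in both libraries. It had 245 FPKM with PRP and 269 FPKM with vehicle (ratio 0.909, interval 0.892 to 0.927, from the smallest read numbers that its levels allow). Of the genes with a mean FPKM within 2-fold of its own, 58.4% differed more than Timp2, 65.5% differed more than Timp3 and 45.9% differed more than Timp1, each in its own range.

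Some of the inhibitor genes overlap others. Syn3, on the opposite strand, shares 21.3% of the exon length of Timp3 and had 4.39 FPKM with PRP and 3.80 FPKM with vehicle. Timp1 lies within the span of Syn1 on the opposite strand, which had 0.786 and 1.04 FPKM, and shares no exon bases with it. Cep295nl lies within the span of Timp2 on the same strand and shares no exon bases with it in the GENCODE M21 annotation, and it had 64.0 FPKM with PRP and 66.4 FPKM with vehicle. The M21 exon length of Timp2 did not give whole read numbers. No other gene overlaps Mmp2, Mmp3, Mmp13, Mmp14, Adamts1 or Adamts5 in this annotation.

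The order of the levels was the same at 4 of the 10 places in both libraries. Timp2 was first and Mmp13 last in both libraries, and Adamts1 and Mmp14 held the fourth and the fifth place in both. Mmp3 was in the sixth place in the PRP library and in the ninth place in the control library. In the PRP library its level could not be told apart from that of Adamts5, with a ratio of 1.03 (interval 0.968 to 1.10). In the control library it could not be told apart from that of Mmp19, with a ratio of Mmp19 to Mmp3 of 1.13 (interval 0.983 to 1.29). Timp1 was above Mmp2 in the PRP library (ratio 1.62, interval 1.54 to 1.70) and just below it in the control library (ratio of Mmp2 to Timp1 1.06, interval 1.003 to 1.12). All other neighbours in either order differed by more than counting error.

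To compare proteases with their inhibitors, FPKM values were summed within each class. The 5 MMP genes had a sum of 175 FPKM with PRP and 210 FPKM with vehicle, and the 3 TIMP genes had a sum of 393 and 397 FPKM. The ratio of the sums was 0.447 with PRP and 0.530 with vehicle. The same ratio for the ADAMTS genes against the TIMP genes was 0.262 and 0.322. Timp3, whose product also blocks ADAMTS enzymes, held only 4.82% of the TIMP sum with PRP and 4.33% with vehicle. Timp2 held 62.4% and 67.8% of it. These are ratios of RNA levels, and protein amounts and inhibition were not measured here. Within the MMP sum, Mmp2 held 45.4% with PRP and 55.8% with vehicle, whereas Mmp3 held 17.4% and 4.70%. The share of Mmp14 was 31.5% and 33.1%. Mmp2 thus held the largest share in both libraries and Mmp14 the next.

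**Figure D3:**
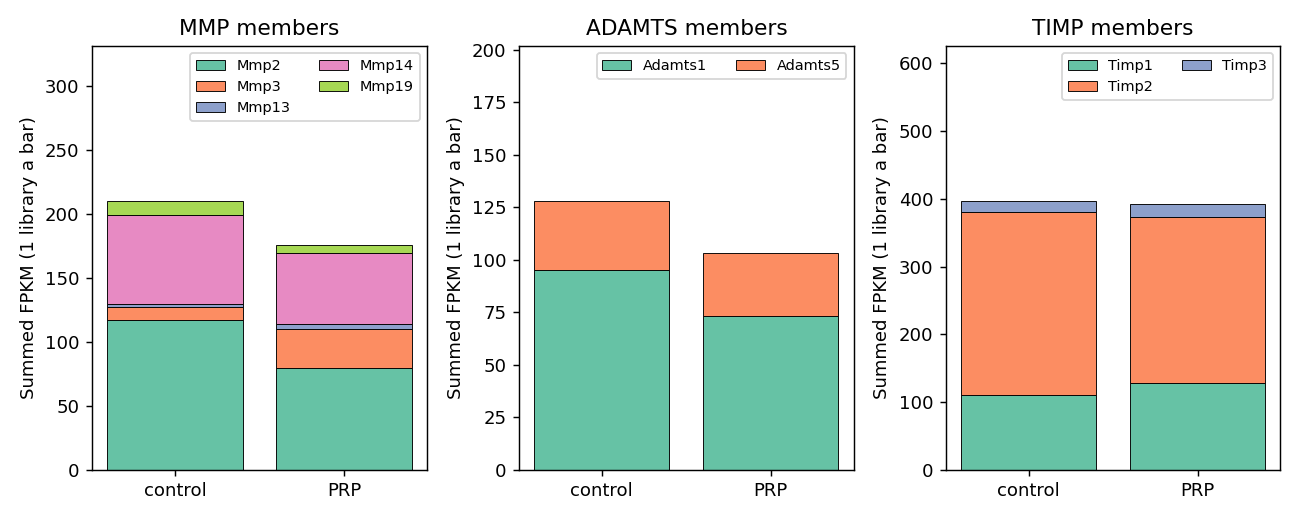
Summed FPKM of the MMP, ADAMTS and TIMP genes in the control and PRP libraries, 1 library a bar and each axis starting at 0. The MMP sum was 175 with PRP against 210 with vehicle and the TIMP sum 393 against 397, and the segment of Mmp3 is larger and that of Mmp2 smaller in the PRP library.

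Among the microRNAs carried by PRP exosomes, the study examined let-7f and miR-16, so the longest 3′UTR of each gene was searched for matches to their seeds, bases 2 to 8 of the microRNA. The study examined the human microRNAs, while the mouse mature sequences from RefSeq are shown here, with the seed in capitals.
let-7f-5p: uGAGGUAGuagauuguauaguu
miR-16-5p: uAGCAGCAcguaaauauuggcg

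A let-7 match (CTACCTC) was present in 2 of the 10 genes, Mmp14 among them, and in 11.2% of 10365 tested genes with a 3′UTR. A miR-16 match (TGCTGCT) was present in 3, namely Mmp2, Mmp19 and Adamts5, and in 27.1% of the tested genes. The sites of 4 genes are shown with their surroundings and the match in capitals, on GRCm38, in the order Mmp2 (chr8:92852840-92852868, plus strand), Mmp19 (chr10:128800086-128800114, plus strand), Mmp14 (chr14:54444636-54444664, plus strand) and Adamts5 (chr16:85862052-85862080, minus strand).
Mmp2, miR-16: accctcccgggTGCTGCTtctccttcctg
Mmp19, miR-16: tattacagatcTGCTGCTcaggggaaaga
Mmp14, let-7: agacttcccagCTACCTCtgtatccttgc
Adamts5, miR-16: aattaagaactTGCTGCTgttaaataaaa

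All 4 genes with a site were lower in the PRP library. Of the 6 genes without a site, 4 were higher (Mmp3, Mmp13, Timp1 and Timp3) and 2 were lower (Adamts1 and Timp2). Among all tested genes with a 3′UTR, 33.5% held either site, and 55.02% of those were lower, against 50.37% of all genes with a 3′UTR. The lengths searched differed widely, from 103 bases for Timp1 and 285 bases for Mmp3 to 6437 bases for Adamts5, and a longer 3′UTR has more room for a match.

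The remaining genes of the families were compared next. Of 18 other MMP genes, 17 were in the tables and 5 passed the filter, 1 of them higher and 4 lower (median log2 fold change -0.26). With every gene above 0 in a library kept, most of them with an average under 1 FPKM, the direction turned, with 9 of 15 higher and 6 lower (median 0.04). Mmp10, which encodes stromelysin-2, was the higher one, at 4.79 FPKM with PRP and 2.57 FPKM with vehicle (ratio 1.87, interval 1.42 to 2.49). Mmp23 had 3.62 against 7.71 FPKM (ratio 0.470, interval 0.387 to 0.568), and Mmp11, which encodes stromelysin-3, had 4.603 against 7.58 FPKM (ratio 0.607, interval 0.515 to 0.714). The gelatinase B gene Mmp9, chosen after its values were seen, had 0.0141 FPKM from 2 reads with PRP and 0 with vehicle.

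Mmp3, Mmp13 and Mmp10 belong to a group of MMP genes on chromosome 9, of which 9 were in the tables. These 3 were the only ones of the 9 that passed the filter, and all 3 were higher in the PRP library. Mmp10 lies 46376 bases from Mmp3, and Mmp13 lies 162490 bases from Mmp3 on its other side. The other 6 (Mmp12, Mmp1b, Mmp1a, Mmp8, Mmp27 and Mmp7) did not exceed 0.252 FPKM in either library. Promoter windows were found for 38 of the genes of these families, with Timp4 and Reck included, and 7 held the AP-1 motif. All 7 were of the chromosome 9 group: Mmp3, Mmp13, Mmp10, Mmp1a, Mmp1b, Mmp7 and Mmp12. Across the whole series, 379 of 8641 tested genes with a promoter window held the motif, and their median log2 fold change was 0.05, against 0.01 for all 8641. Of the 379, 19 (5.01%), Mmp3 among them, were at least 2-fold higher in the PRP library and 2 were at least 2-fold lower. Of the 8641, 119 (1.38%) were higher and 34 were lower by this measure. For tested genes with TATAAA the numbers were 28 of 746 (3.75%) higher and 5 lower. For those with TGACGTCA they were 7 of 304 (2.30%) higher and 0 lower. Any part of these motifs in the levels was not tested.

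Of 23 other ADAMTS and ADAMTS-like genes, 8 passed the filter, with 1 higher and 7 lower (median -0.26). The most abundant were Adamts12 (14.8 against 17.9 FPKM, ratio 0.825) and the procollagen-processing enzyme gene Adamts2 (ratio 0.821). Adamts10 (2.56 against 5.01 FPKM, ratio 0.512), Adamtsl3 (1.07 against 2.38 FPKM, ratio 0.450) and Adamts7 (1.85 against 2.53 FPKM, ratio 0.733) differed most. Of 11 genes of the membrane-bound ADAM family, 8 passed, with 3 higher and 5 lower (median -0.13). Adam9 was the most abundant (119 against 133 FPKM, ratio 0.898), Adam19 was the highest by fold change (35.2 against 25.8 FPKM, ratio 1.37), and Adam15 (ratio 0.648) and Adam33 (ratio 0.676) were the lowest.

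Of 12 other inhibitors, processing factors and clearance receptors, 6 passed, with 2 higher and 4 lower (median -0.54). Lrp1, which encodes an endocytic receptor that clears MMPs and TIMPs, had 62.8 against 90.9 FPKM (ratio 0.692). Pcolce, which encodes an enhancer of procollagen processing, had a ratio of 0.622, and the protease inhibitor gene Serpine2 had a ratio of 0.654. The membrane-anchored MMP inhibitor gene Reck, chosen after its values were seen, had 1.20 against 2.25 FPKM (ratio 0.533, interval 0.420 to 0.679). Timp4, also chosen after its values were seen, had 0.0888 and 0.139 FPKM from 21 and 28 reads.

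Activators and docking partners were evenly split, with 7 higher and 7 lower of 14 genes that passed (of 18 listed), and a median log2 fold change near 0 (-0.0006). Plaur, which encodes the urokinase receptor, had 14.4 FPKM with PRP and 7.23 FPKM with vehicle (ratio 1.99, interval 1.75 to 2.28). Cd44, which encodes the hyaluronan receptor, had 33.2 against 19.1 FPKM (ratio 1.74, interval 1.65 to 1.83). Furin, whose product activates the precursor of MMP14, had 3.17 against 4.78 FPKM (ratio 0.662, interval 0.593 to 0.739). The MMP inducer gene Bsg (ratio 1.004, interval 0.979 to 1.03) and the tetraspanin gene Cd63 (ratio 1.03, interval 1.003 to 1.07) were the most abundant.

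Of 18 transcription factors known to act on inducible MMP genes, 15 passed, with 12 higher and 3 lower (median 0.31). The AP-1 subunit gene Fosl1 was the 1 gene past 2-fold, with 61.6 FPKM with PRP and 22.6 FPKM with vehicle (ratio 2.72, interval 2.51 to 2.95). Junb had 27.7 against 17.5 FPKM (ratio 1.58, interval 1.44 to 1.74), and Fos had 3.23 against 1.76 FPKM (ratio 1.84, interval 1.38 to 2.49). Of 18 cytokine and growth factor genes, 8 passed, with 6 higher and 2 lower (median 0.34). Hbegf, which encodes a ligand of the EGF receptor, had 3.31 against 0.854 FPKM (ratio 3.87, interval 3.005 to 5.13), and the cytokine gene Lif had 3.94 against 1.47 FPKM (ratio 2.67, interval 2.15 to 3.35). Fgf2 was lower (12.3 against 22.0 FPKM, ratio 0.559), and for Tgfb3 the interval of 0.952 to 1.16 included no change.

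Among 28 matrix proteins that serve as substrates, 24 passed, with 5 higher and 19 lower (median -0.37). On the log2 scale with a pseudocount the collagen VI genes had the largest differences, with Col6a1 at 23.1 against 55.9 FPKM (ratio 0.413), Col6a2 at 6.38 against 13.6 FPKM (ratio 0.469) and Col6a3 at 53.8 against 107 FPKM (ratio 0.501). The most abundant were Sparc (815 against 956 FPKM, ratio 0.853) and the fibronectin gene Fn1 (393 against 509 FPKM, ratio 0.773). Mmp2, Mmp14 and Mmp19 were lower like most of these substrate genes, while Mmp3, Mmp10 and Mmp13 were higher.

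**Figure D4:**
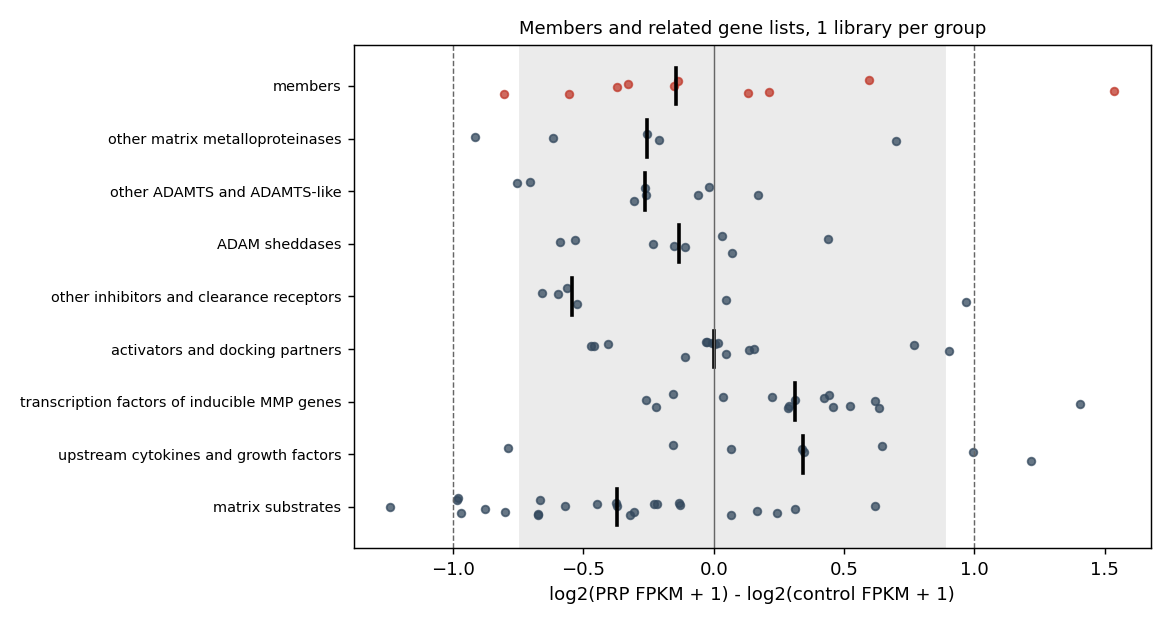
Log2 fold change, log2(PRP FPKM + 1) minus log2(control FPKM + 1), of the 10 genes and of 8 related lists, 1 point per tested gene. Black bars are medians, the grey band holds 95% of all tested genes (-0.74 to 0.89) and dashed lines mark 2-fold. Mmp3 (1.54), Fosl1 (1.41) and Hbegf (1.22) are the points beyond 2-fold on the right and Col6a1 (-1.24) the one on the left.

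Markers were used to check which cells the libraries held. All 8 FAP markers passed the filter, with summed levels of 453 FPKM with PRP and 678 FPKM with vehicle. Pdgfra, which encodes the receptor by which FAPs are defined, had 19.8 and 28.0 FPKM. Of 6 adipocyte markers 4 passed, 3 of them higher and 1 lower in the PRP library. The summed levels of all 6 were 51.0 and 43.4 FPKM. Fabp4 was the most abundant of them, at 40.7 and 33.6 FPKM (ratio 1.21, interval 1.15 to 1.27). The intervals of the others that passed included no change. These were Adipoq (ratio 1.05, interval 0.824 to 1.34), Cfd (ratio 1.31, interval 0.842 to 2.07) and the lower one, Plin1 (ratio 0.823, interval 0.657 to 1.02). The late adipocyte gene Lep, which did not pass, had 2 and 6 reads.

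Inflammatory and vascular cells also make MMPs. Of 8 macrophage markers 2 passed, with summed levels of 10.4 and 10.7 FPKM, of which Cd68 was at 4.56 and 2.31 FPKM (ratio 1.98, interval 1.42 to 2.85) and Lyz2 at 4.91 and 7.57 FPKM (ratio 0.648, interval 0.510 to 0.817). The defining markers Ptprc (0.0109 and 0.0192 FPKM) and Adgre1 (0.0308 and 0.0543 FPKM) were near 0. Of 6 neutrophil markers 1 passed, with summed levels of 2.68 and 1.32 FPKM. The one that passed, S100a9, was at 0.859 and 1.23 FPKM (ratio 0.696, interval 0.255 to 1.85), while S100a8, which did not pass, was at 1.69 and 0.0844 FPKM, and Csf3r and Ly6g were at 0 in both libraries. Of 6 endothelial markers 2 passed, with summed levels of 9.39 and 5.29 FPKM. Kdr was at 4.23 and 1.499 FPKM (ratio 2.82, interval 2.43 to 3.28). Tek was at 4.73 and 3.56 FPKM (ratio 1.33, interval 1.14 to 1.55). Pecam1 (0.188 and 0.0470 FPKM) and Vwf (0.144 and 0.0839 FPKM), which did not pass, were higher with PRP as well. Cdh5 (0.0949 and 0.0976 FPKM) and Cldn5 (0 in both) were at or near 0. Of 6 myogenic markers 5 were in the tables and 2 passed (18.01 and 14.6 FPKM summed), and Pax7 was at 0 in both. Of 5 mural markers 2 passed (19.6 and 13.0 FPKM summed). Myh11 was at 16.7 and 9.86 FPKM (ratio 1.69, interval 1.58 to 1.81), and the intervals of Cspg4, Mcam, Notch3 and Rgs5 included no change. Of 3 tenocyte markers 1 passed (2.79 and 3.40 FPKM summed), and of 5 platelet markers none passed (1.55 and 1.40 FPKM summed). The part of these differences in the MMP and TIMP levels was not tested.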

How the data were processed

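Per the labels, RNA from both cultures was extracted with TRIzol and made into stranded mRNA libraries, and the authors trimmed reads with fastp 0.23.4, aligned them to mm10 with STAR 2.5.3a and counted them with featureCounts. The deposited values are FPKM as the authors computed them, and the annotation release and the formula are not given in the sources used here. From FPKM and the exon lengths of GENCODE M21, whole read numbers could be recovered for 26398 of 28152 genes (93.8%, tolerance 0.001 reads), with totals of 40120843 reads in the PRP library and 34139741 reads in the control library. Timp2 did not with its M21 length of 3896 bases, and the smallest reads its ratio allows, 41617 and 38939, imply a length of 4236 bases. Of genes with up to 8 reads, 79.3% and 80.3% had even numbers, so reads were divided by 2 to give fragments. Exact Clopper-Pearson 95% intervals of the PRP share of fragments were turned into ratios, and they cover counting error only.

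Log2 fold changes used a pseudocount of 1, which understates changes of low genes, and were taken for the 13401 genes whose average was 1 FPKM or more. No test for raw counts was run. The genes and lists were chosen with earlier results of these data known. In each related list the 3 genes with the largest changes and the 2 most abundant were named, except 1 gene that is not reported here, as is 1 microRNA site, and other list genes named were chosen after their values were seen. The pseudocount was varied (0.1 and 5), as was the filter (none, or an average of 5 FPKM), and further alternatives were rescaling to a common sum, with or without mitochondrial and the 50 most abundant genes, centring on the median gene and a 1.5-fold limit. Promoters and microRNAs are RefSeq sequences on GRCm38.p6, and 3′UTRs are those of M21. The recovery of read totals was tested on simulated data with even read numbers only. Directions and counting intervals were tested there for genes with an average of 5 FPKM or more. The sequence searches, list counts and ratios of sums were not tested in this way. Python 3.11.15, NumPy 2.4.6, pandas 2.3.3, SciPy 1.17.1 and matplotlib 3.10.9 were used.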

Additional observations from a re-analysis of the deposited data

How the results depend on the processing

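All 69 alternative log2 fold changes of the 10 genes had the sign of the value reported, and Mmp3 ranged from 1.26 to 1.62, Mmp19 from -0.89 to -0.56, Mmp2 from -0.59 to -0.53 and Mmp13 from 0.30 to 0.77. Mmp3 stayed the 1 gene of the 10 past 2-fold under each setting that kept this limit, and 3 genes passed at 1.5-fold. With a filter at 5 FPKM, Mmp13 was left out. The median of all tested genes stayed between -0.02 and 0.01.

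Of 13401 tested genes, 379 (2.83%) were past 2-fold as reported, 739 with a pseudocount of 0.1 and 113 with one of 5. Rescaling to a common sum gave 596 of the 13401, and 1436 (10.7%) passed at 1.5-fold. A filter at 5 FPKM left 7033 genes, of which 210 were past 2-fold. With every gene above 0 kept, the number was 446 of 29785. Among related lists, a pseudocount of 0.1 gave 1 of 5 other MMP genes and 1 of 8 other ADAMTS genes. It also gave 2 of 8 cytokine or growth factor genes and 2 of 24 substrate genes. A pseudocount of 5 gave 0 of 8 cytokine or growth factor genes, and a filter at 5 FPKM gave 0 of 2. Rescaling to a common sum gave 1 other MMP gene, 2 cytokine or growth factor genes and 4 substrate genes, and rescaling without mitochondrial and abundant genes also gave 4 substrate genes. At 1.5-fold there were 3 of 5 other MMP, 2 of 8 other ADAMTS and 1 of 8 ADAM genes. Of the inhibitor or clearance genes 3 of 6 passed, of the activators 2 of 14 and of the transcription factors 3 of 15. The numbers were 4 of 8 for cytokine or growth factor genes and 10 of 24 for substrate genes.

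The ratio of summed MMP to TIMP levels was 0.649 with PRP and 0.726 with vehicle without Mmp2 and Timp2, and 0.492 and 0.587 over all measured genes of both families. This ratio was lower in the PRP library each time. Without Mmp2 and Timp2, however, the MMP sum was higher with PRP (95.8 against 93.0 FPKM), as was the TIMP sum (148 against 128 FPKM). No paired analysis was possible because PRP and control are 1 library apiece. For the shifts above, the cause was not tested. With every gene above 0 kept, the median log2 fold change was 0.04 for other MMP genes, where its sign turned, -0.06 for other ADAMTS genes, -0.01 for inhibitors and clearance receptors and 0.12 for cytokines and growth factors. Depth limits Mmp9, Timp4 and the other family genes with few reads.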
